A study of Mus musculus with 4 samples.

Results

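MHC class I molecules show peptides cut from the cell's own proteins to cytotoxic T cells. The peptides are made by the proteasome, in which interferon-inducible catalytic subunits (the immunoproteasome) can take the place of the constitutive ones, and are carried into the endoplasmic reticulum by the TAP transporter. There tapasin holds the transporter next to the empty heavy chain while a peptide is loaded. In myeloid leukemia this pathway is best known because its level bears on how visible leukemia cells are to T cells. The genes described here were a named list of 10: the heavy chains H2-K1 and H2-D1, the light chain B2m, the transporter subunits Tap1 and Tap2, tapasin (Tapbp), the immunoproteasome subunits Psmb8, Psmb9 and Psmb10, and the transactivator Nlrc5. Of these, 8 had a row among the 17104 rows of the expression table, and B2m and Psmb10 were not analysed here.

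The samples were YFP+, c-kit+ acute myeloid leukemia (AML) cells, a sort enriched for leukemia stem cells (LSCs), from bone marrow of male C57 mice 6 weeks after secondary transplantation. Both groups began as lineage-negative bone marrow cells of CD37fl/fl mice that carry an inducible Cre (Rosa26-CreERT2), were infected with a retrovirus for the fusion oncogene MLL-AF9 linked to YFP, and grew in sublethally irradiated recipients. The first recipients of the CD37-/- group were given tamoxifen, which activates the Cre and removes the loxP-flanked exons, and those of the CD37fl/fl group were given corn oil, so deletion and tamoxifen cannot be told apart. The groups had 2 libraries each. Cre activation is not limited to one cell type, supporting marrow cells without the oncogene were transplanted alongside, and the labels give neither the age of the mice nor whether cells of several mice were pooled, so the p-values measure only the spread between these samples. Expression was deposited as FPKM (fragments scaled to library depth and gene length), here with the length of the whole gene, introns included, from poly(A) RNA. Whole reads could be recovered from these values, and the implied depth was 15327357 to 22627491 reads per library.

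Cd37, the deleted gene, stood at 56.6 and 46.8 FPKM in the CD37fl/fl libraries and at 23.2 and 22.9 FPKM in the CD37-/- libraries (log2 fold change -1.12, adjusted p = 0.104), in the direction of the labels but not near 0. Of 4 leukemia identity genes tested, 2 were higher and 1 lower in CD37-/- cells at an unadjusted p under 0.05. Over all genes tested, 16.1% were higher and 7.96% lower. Of the higher ones, Ptprc passed the filter on low values only through the CD37-/- group, so no result is drawn from this count. Hoxa10 was at 3.79 and 4.30 FPKM against 8.01 and 10.4, Mpo at 80.3 and 51.6 against 34.4 and 20.8, and Hoxa9, a target of MLL-AF9, between 38.8 and 47.2 in all 4 libraries. Kit, the gene of the sorted surface marker, had 213 to 804 reads. T and NK cell markers summed to 0.848 to 2.76 RPM (recovered reads scaled to library depth). Some libraries stood apart. In CD37fl/fl replicate 1 the MHC class II genes, which serve antigen-presenting cells, summed to 2537 RPM, against 412.8, 179.6 and 498.9 in CD37fl/fl replicate 2, CD37-/- replicate 1 and CD37-/- replicate 2. CD37-/- replicate 2 was the highest library for 15 of the 16 type I interferon target genes with a row, while over all 6761 genes tested it was the highest for 38.4%.

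The promoter of H2-K1 shows the kind of control these genes share. Its promoter is known to hold an upstream enhancer, with an NF-kB site and an interferon-response element, and a downstream module bound by the complex that Nlrc5 joins. Below are the 250 bases before its RefSeq start site (GRCm38.p6, chr17:34000348-34000597, minus strand), with capitals marking, in order, a kappa-B element, an IRF element, the core of the X2 or CRE box, and an inverted CCAAT box.

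H2-K1 promoter: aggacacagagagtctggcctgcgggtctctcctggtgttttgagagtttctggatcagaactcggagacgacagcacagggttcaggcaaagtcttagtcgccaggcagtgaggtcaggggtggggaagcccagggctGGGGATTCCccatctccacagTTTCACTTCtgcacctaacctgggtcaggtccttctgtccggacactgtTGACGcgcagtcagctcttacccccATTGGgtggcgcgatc

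The letters searched, on both strands, were GGGGATTCC for kappa-B, GAANNGAAA for the IRF element, TGACG for the X2 or CRE core and ATTGG for the CCAAT box. The first matches began 111, 90, 41 and 16 bases before the start site, in the same order, and none of the 4 overlapped another. Kappa-B letters stood in 0.213% of the 32851 mouse promoter windows of this length, the IRF letters in 6.31%, TGACG in 17.8% and ATTGG in 33.8%. The kappa-B and IRF letters were chosen after the H2-K1 sequence had been seen. Closely related letters stood before the start of H2-D1, where 161 of 177 aligned bases were identical to H2-K1. The pair of 30-base windows around the enhancer is shown to compare the genes (H2-K1, chr17:34000429-34000458, minus strand, and H2-D1, chr17:35262923-35262952, plus strand), with the kappa-B letters and, at the end, the IRF letters (read on the other strand) in capitals. The H2-K1 windows lie before the annotated gene, and the H2-D1 windows lie within the first exon of the GENCODE transcript H2-D1-202, which starts farther upstream.

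H2-K1 enhancer window: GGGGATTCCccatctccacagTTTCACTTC
H2-D1 enhancer window: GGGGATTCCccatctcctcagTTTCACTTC

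These windows shared 29 of 30 bases. Around the TGACG core, in capitals, the match was looser, at 24 of 30 bases (H2-K1, chr17:34000371-34000400, minus strand, and H2-D1, chr17:35262981-35263010, plus strand).

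H2-K1 window: tccggacactgtTGACGcgcagtcagctct
H2-D1 window: ccgggacactgaTGACGcgctggcaggtct

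Among the 9 start sites that RefSeq lists for 8 of the 10 genes, B2m and Psmb10 included, 6 had TGACG and 7 had ATTGG in this window. These starts are not independent. H2-K1 is listed with more than 1 start, and Psmb9 and Tap1 start 226 bases apart on opposite strands. Their windows overlap, so the same TGACG and the same ATTGG were counted at more than 1 start. The classical interferon-response core GAAANNGAA was found at 1 start, that of B2m (7.13% of all windows), and the GAS core TTCNNNGAA, another interferon-linked element, at 1, that of Psmb8 (7.02% of all windows). Tap2 and Nlrc5 had no promoter entry. A match of letters is a description of the sequence and does not show that a factor was bound in these cells.

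All analysed genes but Nlrc5 lie in the MHC on chromosome 17 (GRCm38, GENCODE M21). From the centromeric side the order is Tapbp (33915899 to 33929292), H2-K1 (33996017 to 34000347), Psmb9 (34181987 to 34187764), Tap1 (34187553 to 34197225), Psmb8 (34197721 to 34201454), Tap2 (34203527 to 34216321) and H2-D1 (35262730 to 35267499). Psmb9 and Tap1 run away from each other and overlap by 212 bases at their starts, on opposite strands, and whether reads were counted by strand is not given in the sources used here. Nlrc5 is on chromosome 8 (94434356 to 94527272). The labels' notes name the build mm39, so these positions come from the annotation used here and not from the authors' own files.

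Levels between genes were compared as FPKM per kilobase of exon. H2-D1 and H2-K1 were the most abundant of the 8 analysed genes, with means over 4 libraries of 342.1 and 223.6, ranks 186 and 288 of 17104 genes. Tapbp (66.4) and Tap2 (53.1) followed, each above the other in 2 libraries, and then Psmb9 (24.5), Tap1 (20.5) and Psmb8 (19.8). Nlrc5 was at 1.45, with 42.3% of all genes lower. H2-D1 exceeded H2-K1 in 3 libraries and was just below it in CD37fl/fl replicate 2, where the H2-D1 to H2-K1 ratio was 0.934 against 1.68, 1.63 and 1.93 in the others, so the order of the pair was not separated from the library spread. The same holds for Psmb9, Tap1 and Psmb8, whose library ranges overlapped. The order below the heavy chains also depends on the length used: per kilobase of the principal transcript, Psmb9 (78.3, 66.7, 51.9 and 68.3 in library order) was above Tap2 (48.5, 84.6, 43.0 and 57.0) in 3 libraries.

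**Figure D1:**
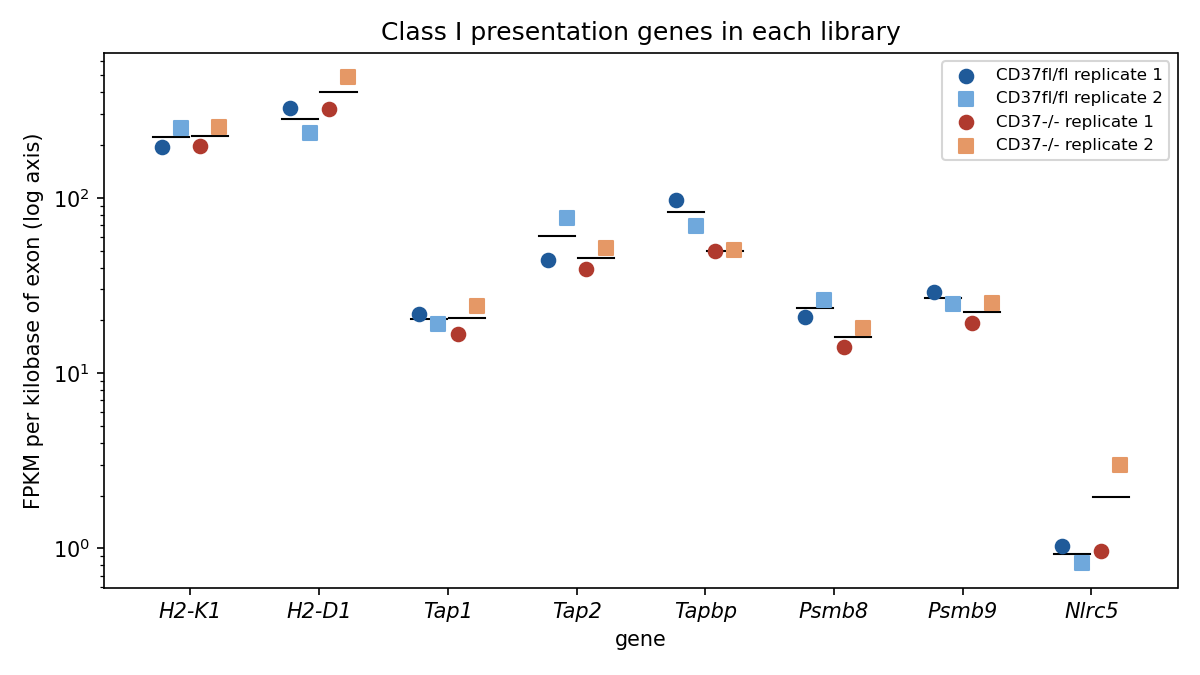
FPKM per kilobase of exon (vertical, log axis) of the 8 analysed class I genes in each library, with circles for replicate 1 and squares for replicate 2 of each genotype and a line at each group mean. Tapbp and Psmb8 are the genes whose CD37-/- points both lie under both CD37fl/fl points, and the Nlrc5 point of CD37-/- replicate 2 lies well above the other 3.

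The comparison of CD37-/- with CD37fl/fl cells asked which of these genes differ when CD37 is lost. With limma on log2(FPKM + 1) over 6761 genes (mean FPKM no lower than 1), no gene passed an adjusted p of 0.05 (0% called, smallest adjusted p = 0.0502), and 1626 genes had an unadjusted p under it, 538 lower in CD37-/- cells (7.96% of all genes tested) and 1088 higher (16.1%). Of the 7 class I genes tested, 1 was under the unadjusted threshold, Tapbp, in the lower direction, and 1 of 7 is too few to set the list apart from that background. The groups did not overlap for 2 of the 7, Tapbp and Psmb8, both lower in CD37-/- cells, while over all genes 23.7% were lower and 38.2% higher without overlap. With limma-voom on recovered reads, where 6.10% of 12901 genes were lower and 19.2% higher at an unadjusted p under 0.05, Tapbp was again the one class I gene, and 0 genes passed an adjusted p of 0.05. In the limma fit on FPKM the median log2 fold change of the 7 was -0.26, against 0.11 over all genes tested, and their smallest adjusted p was 0.188. Of the 7, 5 were below 0, among them Tap1 at only -0.01. In limma-voom the median of the 8 was -0.14, against 0.26 over all genes. Across genes, log2 fold changes were larger for longer gene spans (Spearman rho 0.20 over 6737 genes, a description). With genes split into 3 equal classes by span, the median was -0.08 in the shortest class, which held H2-K1, H2-D1, Psmb8 and Psmb9, 0.10 in the middle class, which held Tap1, Tap2 and Tapbp, and 0.21 in the longest. In the same order, 54.7%, 41.5% and 27.2% of all genes in the class were below 0. The deposited FPKM also summed to less in the CD37-/- libraries, 217309 and 181944 against 260590 and 257393.

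H2-K1, a classical heavy chain whose product presents peptides to CD8 T cells, was at 132.2 and 170.1 FPKM in the CD37fl/fl libraries and at 133.1 and 171.2 in the CD37-/- libraries. The groups overlapped almost completely, and the log2 fold change was 0.01 (SE 0.30, adjusted p = 0.986). Its sign followed the scaling: it was -0.17 with upper-quartile scaling and -0.35 with limma-voom at equal medians, against 0.39 with rescaling to equal sums (TPM). This p does not show that H2-K1 was the same in both groups.

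H2-D1, the other classical heavy chain, was at 176.8 and 126.6 FPKM in CD37fl/fl cells and at 173.3 and 263.1 in CD37-/- cells. CD37-/- replicate 1 lay between the CD37fl/fl libraries, and CD37-/- replicate 2 was 1.49 times the next highest. The log2 fold change of 0.51 (SE 0.34, adjusted p = 0.388) was 0.21 without CD37-/- replicate 2 and 0.27 without the low CD37fl/fl replicate 2, against 0.81 without CD37-/- replicate 1 and 0.75 without CD37fl/fl replicate 1. Transcripts of both heavy chains share sequence with relatives. Of the 50-base words of the H2-D1 transcript, 14.3% also occurred in a transcript of another gene, most in H2-Q1, and 8.79% of those of H2-K1, most in H2-D1, so reads in these stretches could be counted for either gene.

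Of 20 other class I-like heavy chain genes, 11 had a row and 6 were tested. With limma-voom, 1 of 9 was higher and 1 lower at an unadjusted p under 0.05, beside 19.2% and 6.10% of all genes. The list median was 0.57 beside 0.26 over all genes. Hfe, which takes part in iron sensing and presents no peptide, was at 0.858 and 0.556 FPKM in CD37fl/fl and 2.65 and 2.56 in CD37-/- cells (log2 fold change 1.08, SE 0.18, adjusted p = 0.0720), and passed the FPKM minimum only through the CD37-/- group. H2-Q10, a secreted class I heavy chain best known from liver, was at 7.93 and 4.17 FPKM in CD37fl/fl and 1.47 and 2.09 in CD37-/- cells (log2 fold change -1.30, SE 0.30, adjusted p = 0.113). H2-T23, which encodes the non-classical molecule Qa-1, was not analysed here.

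Tap1, a subunit of the peptide transporter, was at 12.3 and 10.8 FPKM in CD37fl/fl cells and at 9.50 and 13.7 in CD37-/- cells. The CD37-/- libraries enclosed the CD37fl/fl pair, and the log2 fold change was -0.01 (SE 0.25, adjusted p = 0.983). Its direction depended on the scaling, since rescaling to equal sums gave 0.34 and limma-voom at equal medians -0.38.

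Tap2, the partner subunit, was at 13.0 and 22.7 FPKM in CD37fl/fl cells and at 11.6 and 15.3 in CD37-/- cells. Here CD37fl/fl replicate 2 was alone at the top, and the log2 fold change of -0.35 (SE 0.33, adjusted p = 0.522) became 0.03 without that library and 0.01 with rescaling to equal sums. Per kilobase of exon, the Tap1 to Tap2 ratio was 0.493 and 0.248 in CD37fl/fl and 0.428 and 0.467 in CD37-/- cells, so that CD37fl/fl replicate 2 stood apart from the other 3 libraries, with a two-sided exact permutation p = 1, where 2 against 2 libraries can reach no less than 0.333.

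Tapbp encodes tapasin, the bridge between transporter and heavy chain. It was at 26.3 and 18.7 FPKM in CD37fl/fl cells (5394 and 4329 reads) and at 13.4 and 13.6 in CD37-/- cells (3195 and 4121 reads). Both CD37-/- libraries were below both CD37fl/fl libraries, and nearly equal to each other. Mean expression was 22.5 ± 5.39 FPKM in CD37fl/fl and 13.5 ± 0.107 FPKM in CD37-/- cells (SD, n = 2), 60.2% of the CD37fl/fl mean. The log2 fold change was -0.67 (SE 0.25, unadjusted p = 0.0397, adjusted p = 0.188), so the difference did not pass the correction over all genes. It was -0.44 without CD37fl/fl replicate 1, the library with the high MHC class II sum, and -0.31 with rescaling to equal sums, and the unadjusted call was lost in both. It was also lost without CD37-/- replicate 1 (-0.67), without CD37-/- replicate 2 (-0.68), with the replicate block (-0.67) and with exon length and equal sums (-0.47). The part of antigen-presenting cells in that library's Tapbp level was not tested. The 7 dendritic cell markers summed to 19.2 RPM there and to 8.31, 3.89 and 11.4 RPM in the others, and 4 of them were highest there. The 7 macrophage markers summed to 135.3, 42.2, 111.9 and 156.2 RPM in library order, with 3 highest there. Over all genes tested, CD37fl/fl replicate 1 was the highest library for 18.8%. Some dendritic cell markers had few reads in every library (Clec9a 3 to 5, Zbtb46 3 to 16). Zbtb22 lies on the same strand within 25.5% of the Tapbp span and was not analysed here, so reads from it could have been counted to Tapbp, depending on how such overlaps were treated.

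Tapasin works with chaperones of the endoplasmic reticulum. None of the 9 genes tested for endoplasmic reticulum folding and peptide loading was under an unadjusted p of 0.05 in limma. With limma-voom 1 was, Sec61a1 of the translocon (log2 fold change 0.72), beside 19.2% of all genes higher. Calr (calreticulin) had a log2 fold change of -0.01 (SE 0.34), Canx (calnexin) 0.06 (SE 0.23), Pdia3 (the oxidoreductase ERp57) -0.13 (SE 0.24) and Erap1, the aminopeptidase that trims peptides after transport, 0.28 (SE 0.18). In the cytosol, where peptidases trim or destroy proteasome products, Lap3 was at 1.67 and 2.42 FPKM in CD37fl/fl and 3.31 and 3.44 in CD37-/- cells (adjusted p = 0.179). Npepps was at 0.577 and 0.496 against 1.42 and 1.78 FPKM (adjusted p = 0.108), and passed the minimum only through the CD37-/- group. With limma-voom, 3 of 6 peptidase genes were higher at an unadjusted p under 0.05, beside 19.2% of all genes.

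Psmb8 encodes the immunoproteasome subunit that replaces Psmb5. It was at 18.9 and 23.8 FPKM in CD37fl/fl cells (1081 and 1539 reads) and at 12.7 and 16.3 in CD37-/- cells (840 and 1377 reads). The groups did not overlap, the CD37-/- mean was 67.9% of the CD37fl/fl mean, and the log2 fold change was -0.53 (SE 0.25, unadjusted p = 0.0833, adjusted p = 0.254). It kept its sign under each of its 22 alternatives, between -0.92 and -0.17.

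Psmb9, which replaces Psmb6, was at 18.3 and 15.6 FPKM in CD37fl/fl cells and at 12.2 and 16.0 in CD37-/- cells. CD37-/- replicate 2 lay between the CD37fl/fl libraries, and the log2 fold change was -0.26 (SE 0.24, adjusted p = 0.524). Rescaling to equal sums turned it to 0.10.

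The constitutive subunits that these replace were read beside them. Psmb5 was at 80.9 and 101.6 FPKM in CD37fl/fl and 63.9 and 55.1 in CD37-/- cells (log2 fold change -0.60, SE 0.27, adjusted p = 0.234), and Psmb6 was at 168.4 and 146.5 against 115.5 and 82.5 (-0.68, SE 0.30, adjusted p = 0.224). With limma-voom, 2 of the 3 constitutive subunits were lower at an unadjusted p under 0.05, beside 6.10% of all genes. Psmb7, the counterpart of Psmb10, was at 3.33 and 3.32 against 3.26 and 3.03 FPKM (-0.06, SE 0.17). As reads per kilobase of the principal transcript, Psmb8 was 0.123 and 0.124 of Psmb5 in CD37fl/fl cells and 0.105 and 0.156 in CD37-/- cells. Psmb9 was 0.149 and 0.146 of Psmb6 in CD37fl/fl and 0.144 and 0.265 in CD37-/- cells. In both pairs the CD37-/- libraries lay on either side of the CD37fl/fl libraries (two-sided exact permutation p = 1 for each), and the transcript of the constitutive subunit was several times more abundant in every library. The Psmb5 level carries a limit: 57.1% of the 50-base words of its transcript also occurred in another gene, mostly Gm3375.

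The rest of the proteasome was measured for comparison. At an unadjusted p under 0.05, 7.96% of all genes were lower and 16.1% higher with limma, and 6.10% and 19.2% with limma-voom. Below 0 were 54.7%, 41.5% and 27.2% of genes in the shortest, middle and longest span class. Of 11 other 20S core subunits, 8 had a log2 fold change below 0, and 1 was under an unadjusted p of 0.05, against 3 lower with limma-voom. With limma on FPKM it was Psma6 (18.7 and 16.1 FPKM against 12.5 and 9.53, adjusted p = 0.194). Among 7 activators and assembly factors tested, 3 were lower and 1 higher at that level, and with limma-voom 4 and 1 of 9. Both subunits of the interferon-inducible activator PA28 were among the lower ones. Psme1 was at 151.8 and 118.7 FPKM in CD37fl/fl and 79.9 and 74.2 in CD37-/- cells (log2 fold change -0.79, SE 0.27, adjusted p = 0.165), and Psme2 at 27.4 and 25.6 against 16.1 and 12.2 (-0.87, SE 0.24, adjusted p = 0.135). Psmg1, a chaperone of core assembly, was at 11.9 and 13.2 against 8.63 and 5.88 FPKM (adjusted p = 0.161). Psme3, which encodes the nuclear activator, was the higher one, at 17.7 and 23.4 against 30.6 and 37.0 FPKM (log2 fold change 0.70, SE 0.26, adjusted p = 0.186). List medians were -0.60 for the 3 constitutive catalytic subunits, -0.41 for the other 20S subunits and -0.56 for activators and assembly factors, beside 0.11 over all genes, and with rescaling to equal sums they were -0.23, -0.07 and -0.23.

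**Figure D2:**
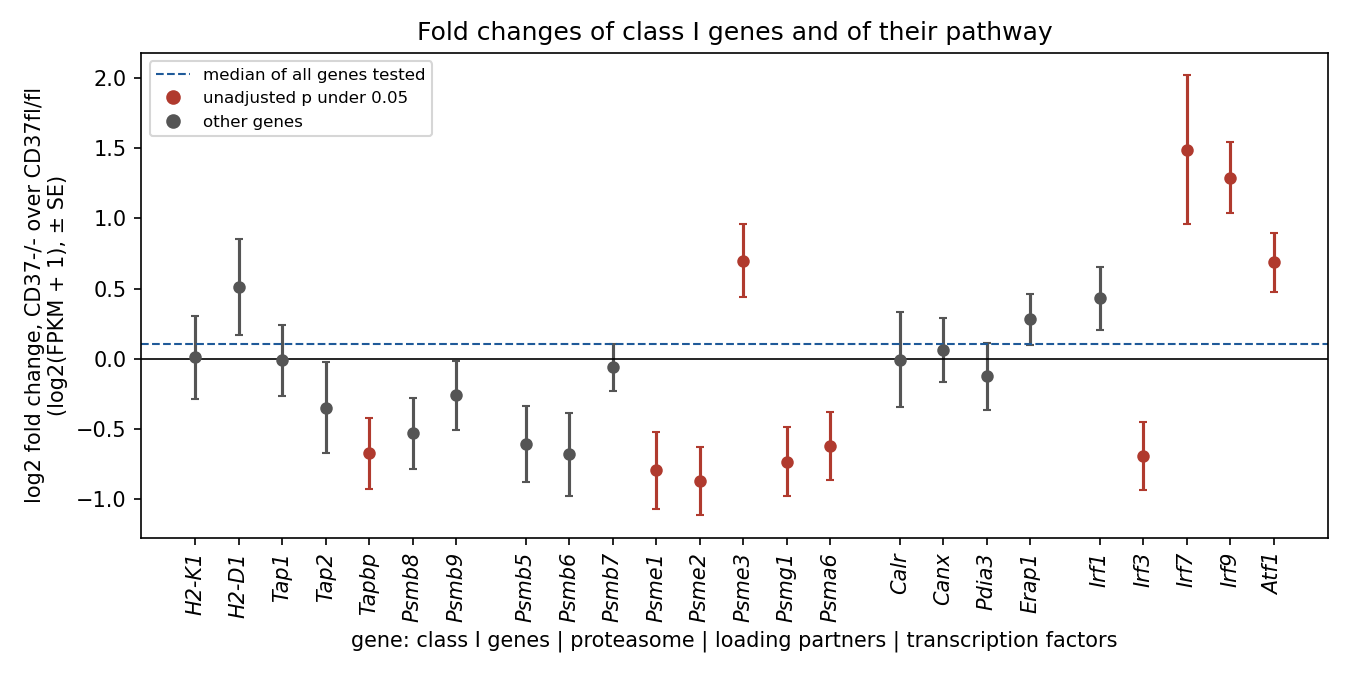
Log2 fold change of CD37-/- over CD37fl/fl cells (vertical, on the log2(FPKM + 1) scale, bars ± SE, 2 libraries a group) for the 7 tested class I genes and for named genes of the proteasome, of peptide loading and of transcriptional control, with a dashed line at the median of all genes tested, 0.11. Tapbp is the one class I gene in red (unadjusted p under 0.05), and Psme1 and Psme2 lie lower still while Irf7 and Irf9 lie highest.

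Nlrc5, the transactivator that switches on class I heavy chain, B2m, Tap1 and Psmb9 promoters, was below the FPKM minimum, at 0.0941 and 0.0752 FPKM in CD37fl/fl cells and 0.0880 and 0.272 in CD37-/- cells. As its gene spans 92917 bases, these values rested on 134, 121, 145 and 571 reads. Only CD37-/- replicate 2 was high, at 2.89 times the next library, and CD37-/- replicate 1 lay between the CD37fl/fl libraries. In the fit of all 16973 genes above 0 the log2 fold change was 0.12 (SE 0.09, adjusted p = 0.517), which the pseudocount compresses. With limma-voom on recovered reads it was 0.93 (SE 0.58, adjusted p = 0.342), and 0.07 without CD37-/- replicate 2.

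Nlrc5 binds no DNA by itself and joins the RFX, CREB/ATF and NF-Y factors. Of 6 such factors tested, 1 was higher at an unadjusted p under 0.05, beside 16.1% of all genes. With limma-voom 4 of 8 were, beside 19.2% of all genes. With limma on FPKM it was Atf1 (1.55 and 2.27 FPKM against 3.26 and 4.07, log2 fold change 0.69, SE 0.21, adjusted p = 0.147). Rfx5, the large RFX subunit, was under the minimum for the main test. It had 5 and 11 reads in CD37fl/fl libraries and 31 and 123 in CD37-/- libraries. It was among the 4 with limma-voom, where it passed the minimum mean of 10 reads only through the CD37-/- group. The 4 of 8 is therefore not read as a result about these factors. Ciita, the related transactivator of class II genes, had 26, 2, 0 and 13 reads in library order and was highest in CD37fl/fl replicate 1, like the class II genes.

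Interferon-linked regulators were uneven. Among 10 IRF, STAT and NF-kB genes tested, 2 were higher and 1 lower at an unadjusted p under 0.05, and with limma-voom 3 and 1 of 11. Over all genes 16.1% were higher and 7.96% lower with limma, and 19.2% and 6.10% with limma-voom. Irf9, part of the type I interferon-activated complex, was at 3.26 and 3.24 FPKM against 7.44 and 11.8 (log2 fold change 1.29, SE 0.25, adjusted p = 0.0893), Irf7 at 9.92 and 4.16 against 12.5 and 31.7 (1.49, SE 0.53, adjusted p = 0.173), and Irf3 at 27.3 and 26.7 against 18.5 and 14.3 (-0.69, SE 0.24, adjusted p = 0.168). Irf1, which acts on class I promoters after interferon-gamma, had a log2 fold change of 0.43 (SE 0.23, adjusted p = 0.288). Of 7 tested genes for interferon receptors, their kinases and the regulators of these, 1 was higher at an unadjusted p under 0.05. It was Ptpn11, which encodes a phosphatase (adjusted p = 0.188). With limma-voom, which also takes in low genes, 5 of 11 were higher, beside 19.2% of all genes. Among them was Tyk2, with 11 and 6 reads in CD37fl/fl and 22 and 90 in CD37-/- libraries. It passed the minimum mean of 10 reads only through the CD37-/- group, so the 5 of 11 is not read as a result about these genes.

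Interferon target genes were read beside the class I genes because both answer to interferons. With limma-voom, 9 of 15 type I targets and 3 of 9 interferon-gamma targets were higher at an unadjusted p under 0.05, and 0 were lower, beside 19.2% of all genes higher. Usp18 (12 and 7 reads in CD37fl/fl, 36 and 172 in CD37-/- libraries) and Gbp5 (5 and 5 against 18 and 54) were among these. Both passed the minimum mean of 10 reads only through the CD37-/- group, so these counts are not read as a result about the targets. With limma on FPKM 8 type I targets were tested, but 3 of these had a CD37fl/fl mean below 1 FPKM and passed the minimum only through the CD37-/- group, so no count is drawn from it. Oas2, which had a mean over 1 in both groups, was at 2.21 and 1.01 FPKM against 3.48 and 7.89. Of the interferon-gamma targets, Irgm1 was at 0.826 and 1.34 against 2.45 and 4.89, and Gbp3 at 0.708 and 1.42 against 3.13 and 3.03. The 16 type I targets with a row summed to 424.7 and 315.8 RPM in CD37fl/fl libraries and 436.8 and 857.8 in CD37-/- libraries, so CD37-/- replicate 2 was the highest. Gene by gene, CD37-/- replicate 1 was above both CD37fl/fl libraries for 10 of the 16. Over all genes tested, 38.2% had both CD37-/- libraries above both CD37fl/fl libraries, which is a stricter measure. The share for CD37-/- replicate 1 alone was not counted, so the 10 of 16 cannot show whether these targets stand apart. CD37-/- replicate 2 was also the highest for 4 of the 8 class I genes, near the 38.4% over all genes tested. These were H2-K1 (1.01 times the next library), Tap1 (1.12 times), H2-D1 (1.49 times) and Nlrc5 (2.89 times). It was not the highest for Tap2, Tapbp, Psmb8 or Psmb9. What set CD37-/- replicate 2 apart was not tested.

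**Figure D3:**
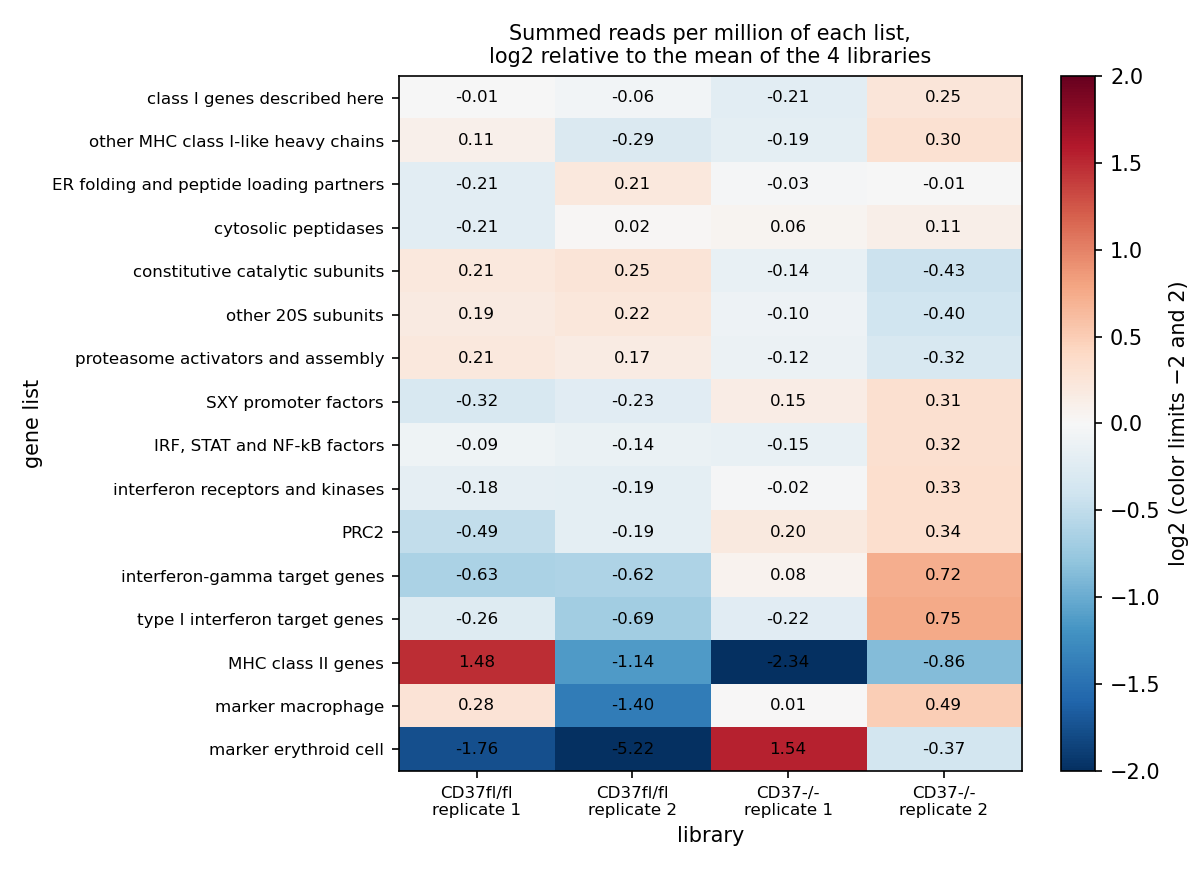
Summed RPM of gene lists (rows) in each library (columns), as log2 relative to the mean of the 4 libraries, with the value printed in each cell and colors limited at -2 and 2. The lists of leukemia identity genes and of B cell, T and NK cell, dendritic cell, and endothelial and stromal cell markers are not shown. The class I genes range from -0.21 to 0.25, the type I interferon targets reach 0.75 in CD37-/- replicate 2, the class II genes reach 1.48 in CD37fl/fl replicate 1, and the 3 proteasome rows are above 0 in both CD37fl/fl libraries and below 0 in both CD37-/- libraries.

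Genes of other cells also differed between libraries. The 7 erythroid markers with a row summed to 71.8 and 6.52 RPM in CD37fl/fl and 707.3 and 188.0 in CD37-/- libraries. The part of these cells in the class I values was not tested, and in bulk samples fewer cells of a type and less RNA per cell cannot be told apart. PRC2, a repressor complex known to silence class I genes in some tumors, had 1 of 3 tested genes higher at an unadjusted p under 0.05, beside 16.1% of all genes. It was Suz12 (1.28 and 2.03 FPKM against 3.80 and 4.44, log2 fold change 0.96, SE 0.21, adjusted p = 0.105).

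**Figure D4:**
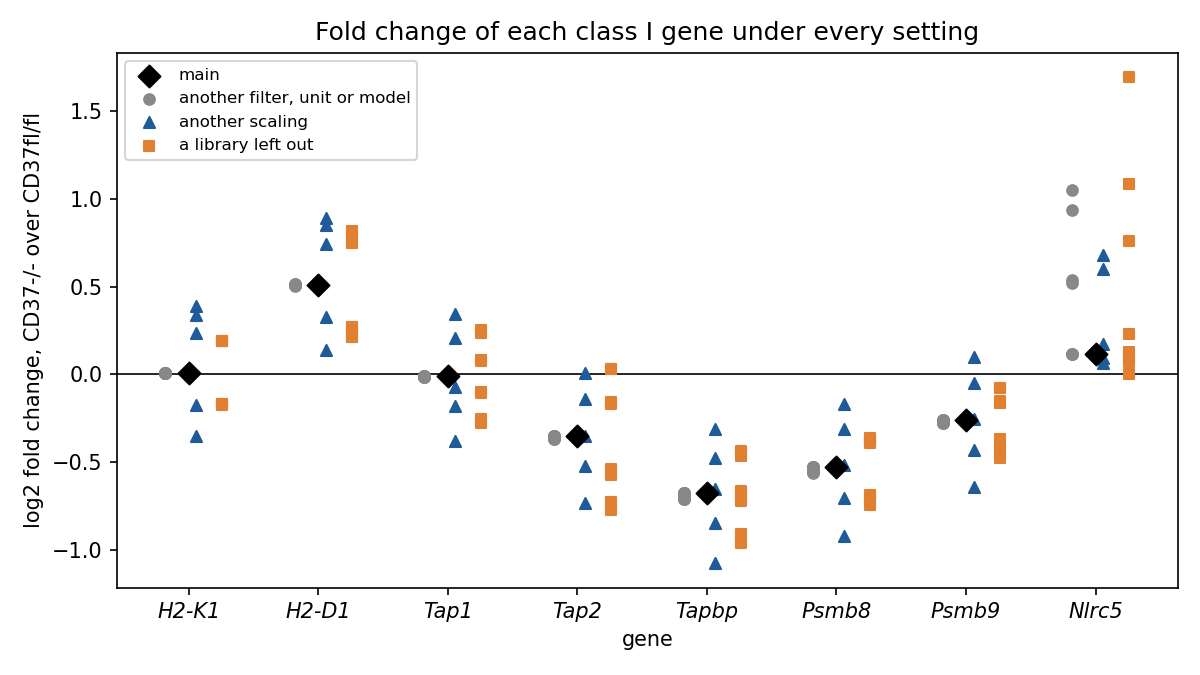
Log2 fold change of CD37-/- over CD37fl/fl cells (vertical) for each class I gene under limma on log2(FPKM + 1) (diamond) and under every alternative filter, unit or model (circles), scaling (triangles) and left-out library (squares). Tapbp and Psmb8 stay below 0 and H2-D1 and Nlrc5 above 0 throughout, while H2-K1, Tap1, Tap2 and Psmb9 have points on both sides.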

How the data were processed

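Per the labels, poly(A) RNA was sequenced with a dUTP strand-marking kit, and the submitters' processing notes name fastp 0.20.1, STAR 2.7.7a, featureCounts 2.0.0, edgeR and the build mm39. The deposited unit was FPKM, 1 column per library. Multiplied by GENCODE M21 gene spans, 99.0% of values were whole reads (tolerance 0.05 read, 10% by chance), so the authors divided by the span, introns included; 17045 of 17104 gene IDs matched. How intronic and overlapping reads were counted is not given in the sources used here.

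Class I members and gene lists were chosen with earlier results of these data known. The main test was limma 3.58.1 (R 4.3.3, moderated with a trend) on log2(FPKM + 1) over genes whose mean FPKM was 1 or more, without a replicate block, Benjamini-Hochberg adjusted over the whole set of genes, and it was tested on simulated data. Fold changes on this scale understate the change of low genes. Alternatives were another pseudocount, filter, scaling, exon length, moderation, a block, each library left out, and limma-voom on recovered reads (mean of at least 10 reads). Named genes were all members, preset partners such as Calr, Irf1, Rfx5 and Ciita, and genes of the wider lists. From each wider list the plan was to name genes with an unadjusted p under 0.05, up to 4 by smallest p. It was not kept throughout, and Oas3, Oasl2, H2-DMb1, Vcam1, Cd79b and the globin genes met it but were not described. Hoxa10, Mpo, Ptprc, Sec61a1, Gbp3, Gbp5, Usp18, Tyk2, Clec9a and Zbtb46 were named after their values were seen. Ratios used exact permutation tests. Promoters came from RefSeq (GRCm38.p6). B2m and Psmb10 ratios were not run.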

Additional observations from a re-analysis of the deposited data

How the results depend on the processing

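With 2 libraries a group, how many genes passed an adjusted p of 0.05 was unstable. It was 0 with limma on log2(FPKM + 1) and also with a pseudocount of 0.1, quantile normalization, rescaling to equal sums, no trend, all genes above 0, limma-voom and limma-voom at equal medians. It was 46 with upper-quartile scaling, 88 with robust moderation, 45 at a mean FPKM of at least 5 and 16 with exon length. It was 73 with the replicate block and 549 with the block in limma-voom. The labels do not say whether replicate numbers pair the samples. Deviations of same-numbered libraries correlated at -0.0418, which with 2 libraries a group cannot show that the samples were unpaired. With exon length and equal sums, an alternative chosen after seeing the data, the number of genes passing was 609. Leaving out 1 library gave 0 to 307. The 307 came without CD37fl/fl replicate 1 in limma-voom, and 61 without CD37-/- replicate 1, both also chosen after seeing the data. No class I gene passed an adjusted p of 0.05 under any of these.

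Of the class I genes, 1 was under an unadjusted p of 0.05 with limma on log2(FPKM + 1). It was 2 with upper-quartile scaling (Tapbp and Psmb8), 4 with limma-voom at equal medians (Tap2, Tapbp, Psmb8 and Psmb9), 0 with the replicate block, 0 with exon length and equal sums, and 0 to 2 with a library left out. With rescaling to equal sums it was H2-D1 in place of Tapbp. Over all genes tested, scaling shifted the median log2 fold change from 0.11 to 0.40 (equal sums), -0.02 (quantile) and -0.03 (upper quartile), and the share of higher genes among those at an unadjusted p under 0.05 from 66.9% to 91.3%, 48.0% and 44.0%.

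Signs turned for H2-K1 (main value 0.01, range -0.17 to 0.19 with a library left out, -0.17 with upper-quartile scaling, -0.35 with limma-voom at equal medians, negative without CD37fl/fl replicate 1 or without CD37-/- replicate 2), for Tap1 (0.34 with equal sums, 0.21 with exon length and equal sums, -0.26 to 0.23 with a library left out, positive without CD37fl/fl replicate 1 or CD37-/- replicate 1, where limma-voom gave 0.082 and 0.25), for Tap2 (0.0098 with equal sums, -0.73 to 0.031 with a library left out, positive without CD37fl/fl replicate 2, where limma-voom gave 0.033) and for Psmb9 (0.10 with equal sums). The log2 ratio difference of Psmb8 to Psmb5 was 0.05 and -0.24 to 0.34 with a library left out, that of Psmb9 to Psmb6 0.41 and -0.033 to 0.85, both lowest without CD37-/- replicate 2, and that of H2-D1 to H2-K1 0.50 and 0.08 to 0.93. The cause was not tested. Nlrc5 rested on 121 to 571 reads a library and on CD37-/- replicate 2.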
